A study of Gallus gallus with 10 samples.

Results

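The protein tyrosine phosphatase genes comprise cytosolic (PTPN) and receptor-type, membrane-spanning (PTPR) members. In chicken abdominal fat they were taken as all probe sets whose single annotated gene symbol starts with PTPN or PTPR. They came to 85 of 38439 probe sets, for 33 genes of the 13009 genes named on the array. Of these, 26 probe sets belong to 13 cytosolic genes and 59 to 20 receptor genes. A further 1 probe set, annotated to PTPRN together with another gene, was left out. All 33 genes matched a RefSeq gene of the chicken assembly GRCg7b. PTPN22 and PTPN23 had no probe set of their own under the rule and were not analysed here.

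The birds were 5 males of a fat line and 5 males of a lean line, all of the Arbor Acres broiler breed, 49 days old, kept and fed alike. The lines had been divergently selected for abdominal fat percentage and plasma very low density lipoprotein. The birds of this experiment were the extremes of abdominal fat percentage, so line and fatness cannot be told apart. Each bird's abdominal fat RNA was hybridized to 1 Affymetrix Chicken Genome Array, and the values are MAS5 signals, a summary of the fluorescence of the short probes of a probe set.

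Protein tyrosine phosphatases remove phosphate from tyrosine and so oppose tyrosine kinases such as the insulin receptor. The cytosolic enzymes differ in the domains that place them in the cell: PTPN1 (PTP1B) sits on the endoplasmic reticulum and acts on the insulin receptor and on the kinase of the leptin receptor, PTPN6 and PTPN11 (SHP-1 and SHP-2) bind phosphotyrosine through SH2 domains, and PTPN3, PTPN4, PTPN13, PTPN14 and PTPN21 carry a FERM domain for the cell cortex. Many of the receptor members carry adhesion-like ectodomains, while that of PTPRA and PTPRE is short. PTPRM, PTPRK, PTPRT and PTPRU have a MAM domain and sit at cell contacts. PTPRF, PTPRS and PTPRD (the LAR group) bind matrix proteoglycans and synaptic partners. PTPRC (CD45) is known from leukocytes, and PTPRB (VE-PTP) from endothelium.

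On every array the mean without the highest and lowest 2% of signals was 500, which is the scaling of the deposited values. Fat line 4 stood apart from the other arrays, with a median signal of 276.2 against 185.8 to 234.2 in the other 9 and a mean correlation with them of 0.819 against 0.865 to 0.884. The scan headers placed fat line 5 and lean line 4 on scan day 1, lean line 1 and 2 on day 2, and the other 6 birds on day 3. Arrays of days 1 and 2 shared a scanner, and those of day 3 were read on a different scanner. The ratio of 3' to 5' signals of the actin control was 2.28 to 3.09 on days 1 and 2 and 1.55 to 2.05 on day 3. Alternative fits given below took scan day, and with it the scanner, as a block, or used day 3 alone. Day 2 held only lean line birds, so with that block lean line 1 and 2 add nothing to the line difference. Day 3 held fat line 1 to 4 and only lean line 3 and 5 of the lean line. Beyond these fits, the part of scanner and 3' to 5' ratio in the line differences was not tested. The 13 fat cell markers had a median signal percentile of 99.3 and a median log2 fold of 0.32. Of them, 5 were higher (38.5%, against 3.38% of the array) and 1 lower (7.69%, against 3.99%) in the fat line at an unadjusted p under 0.05. Marker lists of other tissues had median log2 folds below 0 (fat line over lean line). They were -1.4 over 15 skeletal muscle genes, -0.97 over 10 smooth muscle genes, -1.3 over 17 liver genes and -0.84 over 12 intestine genes. In that order, 13.3%, 60%, 23.5% and 16.7% of the genes were lower in the fat line at an unadjusted p under 0.05. The share over the array was 3.99%, and 0 genes of these lists were higher at that threshold. The mean log2 signal of each list was also taken relative to all birds. For skeletal muscle it was above 0 only at lean line 3 (2.92), lean line 5 (3.66) and fat line 2 (1.98). For liver it was above 0 only at lean line 1 (2.75) and lean line 5 (1.92). For smooth muscle it was highest at lean line 4 (1.65) and lean line 1 (1.04), with lean line 2 and 5 below 0. Only the intestine list was above 0 at every lean line bird. The part of these lists in the phosphatase values was not tested. In bulk tissue, fewer cells of a type and less RNA per cell cannot be told apart.

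Transcripts of most phosphatase genes gave signals in the middle of the array's range, and few were bright. The percentile of a probe set is its place by mean log2 signal among the 38439 probe sets. Only 2 of the 85 probe sets (2.35%) lay above percentile 90, against 10% of the array by construction, while 43 (50.6%) lay above percentile 50. Every bird gave a signal of 100 or more at 36 of them (42.4%, against 46.8% of the whole array), and at 7 every bird was under 100. A signal depends on how well the probes hybridize as well as on the RNA, so a brighter probe set need not mean more RNA, and the levels below are a description with no test.

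Taking each gene by its brightest probe set, cytosolic genes had a median percentile of 70.5 (32.0 to 96.0, 13 genes) and receptor genes one of 63.8 (25.2 to 90, 20 genes), beside 70.4 over all 13009 genes. In each bird the cytosolic median was above the receptor median, by 5.12 to 15.6 percentile points. The gap depended on how a gene with several probe sets was counted: with the mean over its probe sets the medians were 56.9 in cytosolic and 53.4 in receptor genes, and over single probe sets the order turned, at 41.6 for cytosolic and 52.5 for receptor probe sets. The share of genes with a probe set above percentile 50 was 10 of 13 (76.9%) in the cytosolic class and 15 of 20 (75%) in the receptor class.

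**Figure D1:**
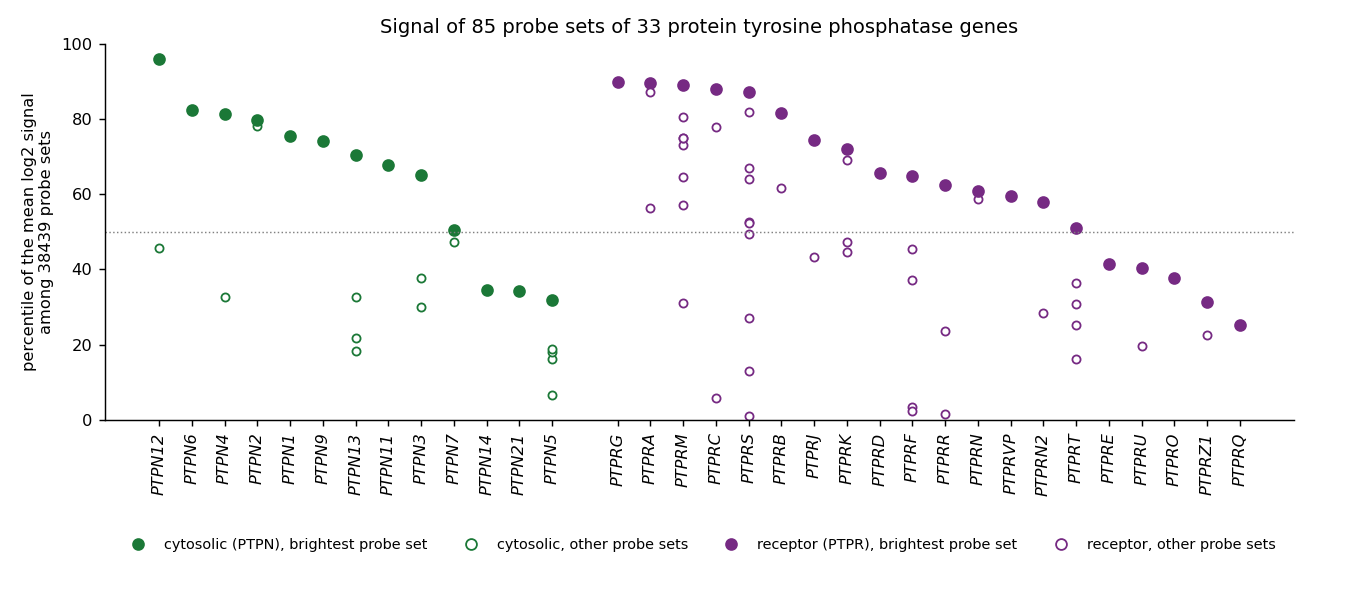
Percentile of the mean log2 signal (vertical axis) of each of the 85 probe sets, by gene, with 13 cytosolic genes on the left and 20 receptor genes on the right; filled points are the brightest probe set of a gene and the dotted line is percentile 50. PTPN12 stands highest at 96.0 and the probe sets of PTPRS run from 1.1 to 87.2.

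The brightest of all members was PTPN12 (PTP-PEST), which acts on proteins of focal adhesions. Its probe set Gga.8364.1.S1_at gave 3823.6, 3040.4, 4349.9, 2721.4 and 3885.9 in fat line 1 to 5, against 2380.2, 2748.0, 2964.6, 2735.8 and 3335.7 in lean line 1 to 5. Fat line 1, 3 and 5 lay above every lean line bird, and the lines overlapped through fat line 2 and 4 (log2 fold of the fat line over the lean line 0.32 ± 0.15 SE, limma adjusted p = 0.69).

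The next cytosolic genes by signal were regulators of immune and insulin signalling. PTPN6, the SH2 domain phosphatase of blood cells, had 813.7, 891.3, 809.4, 703.0 and 868.4 in the fat line and 771.5, 1074.8, 1486.0, 274.8 and 853.6 in the lean line. Lean line 3 was the highest bird and lean line 4 the lowest, and the fat line birds lay close together between them. PTPN4, a FERM and PDZ domain phosphatase, had 767.5, 760.7, 710.1, 1067.1 and 727.7 in the fat line and 580.3, 729.9, 986.6, 588.3 and 651.3 in the lean line.

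PTPN2 (TC-PTP), the nearest relative of PTPN1, acts on JAK kinases, STAT proteins and the insulin receptor. Its brighter probe set gave 801.6, 655.8, 830.5, 421.8 and 630.6 in the fat line, against 1013.1, 557.4, 826.8, 517.7 and 742.0 in the lean line. PTPN1 itself gave 462.5, 584.3, 621.8, 477.6 and 683.4 in the fat line, against 696.8, 507.8, 419.6, 578.7 and 408.4 in the lean line. The lines overlapped widely for both genes, with a log2 fold of 0.13 (95% interval -0.32 to 0.58) for PTPN1 and -0.13 (-0.63 to 0.38) for this PTPN2 probe set. These intervals do not show equal levels.

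PTPN9 (MEG2), a phosphatase of secretory vesicles, gave 419.2, 466.1, 502.4, 526.3 and 454.6 in the fat line, against 540.5, 505.6, 578.2, 564.1 and 537.9 in the lean line. The lines met only where fat line 4 exceeded lean line 2. Its log2 fold was -0.21 ± 0.17 (SE), with an unadjusted p = 0.0159 by the exact permutation test (two-sided). By limma it had an unadjusted p = 0.252 and an adjusted p of 0.84. The PTPRN2 probe set GgaAffx.4044.1.S1_s_at had the same exact permutation p, with a log2 fold of -0.82 (limma adjusted p = 0.742). The SE from limma leans on the spread of probe sets of like signal, and PTPN9 varied little, with 474 ± 41.8 in the fat line and 545 ± 27.8 in the lean line (SD, n = 5 each).

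Among receptor genes, PTPRG had the highest signal, a carbonic anhydrase domain phosphatase that binds contactins. It gave 1848.6, 1668.8, 1639.7, 1367.3 and 1457.8 in the fat line and 1022.7, 1646.5, 1346.4, 1533.0 and 1005.8 in the lean line. Lean line 1, 3 and 5 lay below every fat line bird, and lean line 2 and 4 lay within the fat line's range (log2 fold 0.31 ± 0.17, limma adjusted p = 0.746).

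PTPRA, a short-ectodomain phosphatase that activates Src family kinases, gave 1584.1, 1832.6, 1543.0, 1026.5 and 1245.2 in the fat line and 1670.0, 1418.5, 668.0, 1389.4 and 1759.5 in the lean line at Gga.4972.1.S1_at. Lean line 3 was the low bird. PTPRC gave 1019.0, 997.8, 1454.0, 1439.7 and 1464.9 in the fat line and 1156.3, 616.5, 1876.6, 1132.0 and 1350.3 in the lean line at Gga.1193.1.S2_at. Both the highest and the lowest bird for PTPRC were of the lean line, and its mean was 1275 ± 244 in the fat line and 1226 ± 454 in the lean line (SD, n = 5 each).

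The gene of lowest signal was PTPRQ, known from inner ear hair cells, at percentile 25.2 (signals of 17.9 to 197.6). PTPRZ1, known from the nervous system, lay at 31.4, PTPN5 (STEP), a brain phosphatase that binds MAP kinases, at 32.0, the FERM domain genes PTPN21 and PTPN14 at 34.2 and 34.6, and PTPRO, known from kidney podocytes and neurons, at 37.6. By their brightest probe sets, genes known from nervous tissue and secretory granules were not all among the dimmest, with PTPRR at 62.6, PTPRN at 60.9 and PTPRN2 at 57.9. Their other probe sets lay at 23.7 and 1.62 for PTPRR, 58.8 for PTPRN and 28.4 for PTPRN2, so for PTPRR and PTPRN2 the reading depended on the probe set.

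No phosphatase probe set passed the test between the lines. After Benjamini-Hochberg adjustment over the array, limma called 0 of 85 members, where it called 0% of all probe sets, and the lowest adjusted p of a member was 0.356. SAM with a delta of 0.8, run here on all 10 birds and all probe sets, called 0 as well. At an unadjusted p under 0.05, limma gave 8 members (9.41%), where 7.38% of all probe sets passed. The fat line was higher at 6 of them (7.06% of members, against 3.38% of the array) and lower at 2 (2.35%, against 3.99%). This split was not stable: 3 were higher and 5 lower both without the intensity trend in limma and with the scan day as a block, and 4 higher and 5 lower with signals under 100 set to 100. It was 2 and 3 without fat line 1, and 2 and 4 without fat line 3. Without fat line 4 it was 4 and 4, without lean line 3 it was 3 and 4, and without lean line 4 it was 2 and 2. Other settings kept more higher than lower. The split was 6 and 2 with the same median or 50 added, and 5 and 2 with quantile normalization or the replicate block. In the brighter probe sets alone it was 4 and 0, and within scan day 3 it was 4 and 1. Without fat line 2 or 5 it was 4 and 2, without lean line 1 or 2 it was 5 and 4, and without lean line 5 it was 5 and 2. With any 1 bird left out, 4 to 7 of the 8 were still among the probe sets that passed.

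All 8 were receptor probe sets, 13.6% of the 59, and 0 of the 26 cytosolic probe sets were among them, with the difference between the classes not tested. That too depended on the setting, since 1 cytosolic probe set passed without the intensity trend (PTPN3), 2 with the floor of 100 (PTPN3 and PTPN9), 2 with the scan day as a block (PTPN5 and PTPN7) and 0 to 2 with a bird left out. The lines did not overlap at 0 of the 85, where they did not overlap at 1.39% of all probe sets. The log2 fold was above 0 at 35 members (41.2%, against 44.3% of the array), with a median of -0.12 against -0.055. Without lean line 4 the count at an unadjusted p under 0.05 was 4, and without fat line 1 it was 5. The median SE of a member's log2 fold was 0.268 for signals above the median of the array and 0.581 for the others, so a change of dim members needed to be large to be seen.

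**Figure D2:**
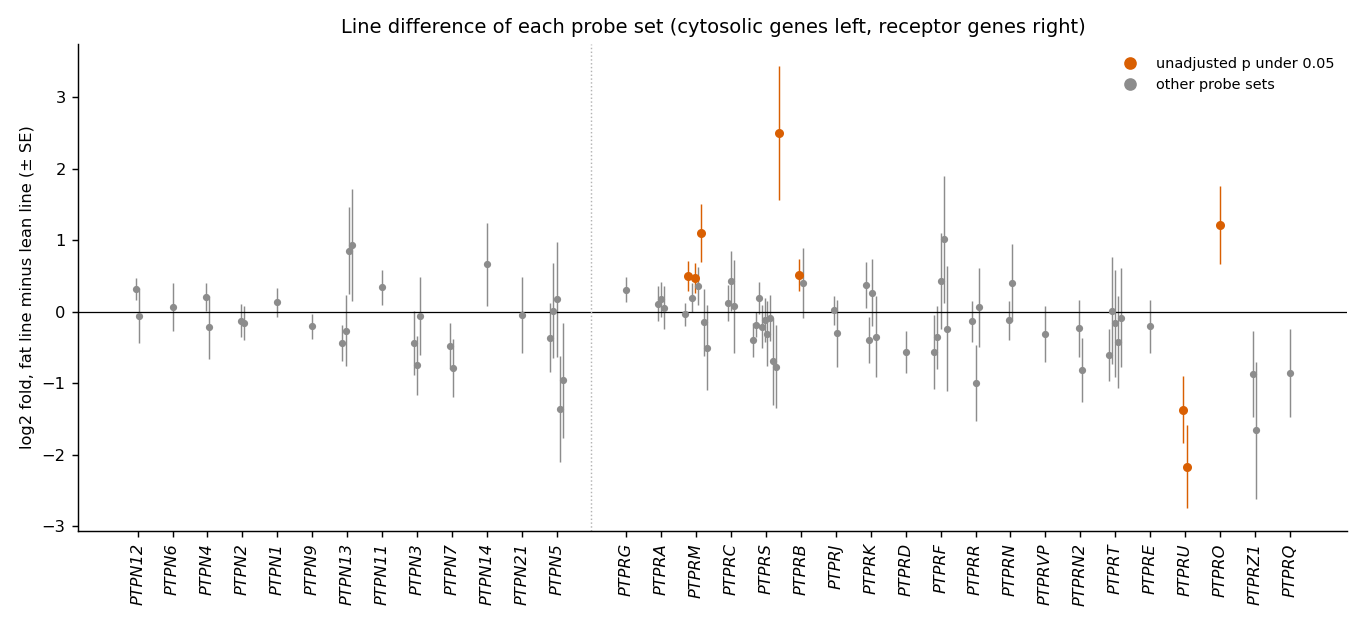
Log2 fold of the fat line minus the lean line, with its SE from limma (vertical axis), of each of the 85 probe sets by gene, cytosolic genes left and receptor genes right. The 8 coloured points have an unadjusted p under 0.05, all on the receptor side, from -2.17 at PTPRU to 2.50 at PTPRS, and none passed after adjustment.

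PTPRU, a MAM domain receptor of cell contacts, was the member with the smallest p, and it was dim. Its probe set Gga.19486.1.S2_at gave 14.9, 14.1, 56.6, 27.8 and 27.5 in the fat line, against 123.6, 47.4, 113.7, 151.0 and 168.7 in the lean line. All fat line birds but fat line 3 lay below the lowest lean line bird. Its log2 fold was -2.17 ± 0.58 (SE; limma unadjusted p = 0.00198, adjusted p = 0.356; exact permutation p = 0.0159). With signals under 100 set to 100 the log2 fold was -0.37, since all 5 fat line birds lie under that floor.

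The second PTPRU probe set, Gga.19486.1.S1_at, gave 88.1, 202.5, 108.4, 60.5 and 35.7 in the fat line, against 177.3, 266.5, 145.6, 324.6 and 218.6 in the lean line. Only fat line 2 lay within the range of the lean line (log2 fold -1.37 ± 0.47, limma unadjusted p = 0.0105, adjusted p = 0.528). The pair thus had the same sign, but within the lines their birds did not move together: r was 0.522 over the 10 birds and -0.236 with the line means removed. Within scan day 3, with fat line 1 to 4 against lean line 3 and 5, the log2 folds were -2.53 at the dimmer and -0.78 at the brighter probe set. The smooth muscle, skeletal muscle and liver lists also had median log2 folds below 0. None of them was above the mean of all birds at every lean line bird. The intestine list, with a median log2 fold of -0.84, was above that mean at every lean line bird (0.0402 to 1.7). At every fat line bird the intestine list was below that mean (-1.13 to -0.0747). Summed smooth muscle signals were 17610 to 25115 in the fat line and 24644 to 80601 in the lean line. The part of these lists in PTPRU was not tested.

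PTPRM, a MAM domain phosphatase that binds its own kind on the neighbouring cell and associates with cadherins, had 3 of its 8 probe sets among the 8 of smallest p, all higher in the fat line. At GgaAffx.8848.1.S1_at the signals were 875.6, 813.4, 977.4, 997.4 and 647.6 in the fat line, against 836.3, 696.5, 666.9, 443.8 and 460.4 in the lean line (log2 fold 0.50 ± 0.21, limma unadjusted p = 0.0321, adjusted p = 0.648). At GgaAffx.8846.1.S1_at they were 562.3, 570.5, 653.8, 916.4 and 474.8, against 476.7, 409.4, 426.3, 386.4 and 558.7 in the lean line (0.47 ± 0.21, limma unadjusted p = 0.0426, adjusted p = 0.669). At both, fat line 5 was the lowest bird of its line and fell inside the lean line's range.

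The third, Gga.11060.1.S1_at, gave 609.5, 510.6, 682.3, 462.5 and 289.3 in the fat line, against 355.9, 74.1, 302.1, 191.0 and 405.6 in the lean line. Its log2 fold was 1.10 ± 0.41 (limma unadjusted p = 0.0169, adjusted p = 0.576), and 0.70 without lean line 2, the lowest bird. With arrays grouped by the hybridization time in their headers as a block, the value was 0.59. The brightest PTPRM probe set, GgaAffx.8830.1.S1_at, showed none of this: it gave 1259.2, 1417.6, 1272.7, 1100.8 and 1486.8 in the fat line and 1142.7, 1579.3, 1030.7, 1524.4 and 1483.2 in the lean line, with a log2 fold of -0.036 ± 0.16 that turned above 0 with the arrays scaled to the same median. Of the 8 PTPRM probe sets, 5 had a log2 fold above 0 and 3 below 0.

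PTPRB, which acts on the endothelial kinase TEK (TIE2) and on VE-cadherin, gave 1077.3, 1108.9, 941.4, 551.7 and 951.2 in the fat line, against 805.2, 791.0, 543.3, 617.6 and 464.1 in the lean line. Without the low bird fat line 4, the lines would not overlap. The mean signal was 926 ± 222 in the fat line and 644 ± 151 in the lean line (SD, n = 5 each), a log2 fold of 0.51 ± 0.23 (limma unadjusted p = 0.0376, adjusted p = 0.656; exact permutation p = 0.0635). It was 0.69 without fat line 4, with a limma adjusted p of 0.29, and 0.82 within scan day 3. Without fat line 4, 11.3% of all probe sets had an unadjusted p under 0.05, against 7.38% with all birds. With a bird left out the PTPRB log2 fold ran from 0.40 to 0.69. Its unadjusted p by limma was under 0.05 in 11 of 21 alternatives, and its highest adjusted p was 0.929.

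The second PTPRB probe set gave 462.2, 373.7, 457.8, 128.6 and 452.3 in the fat line and 293.1, 363.4, 369.0, 435.9 and 66.7 in the lean line. Fat line 4 and lean line 5 were its low birds, as at the first probe set, and the pair had an r of 0.712 over the 10 birds (permutation p = 0.00909, adjusted over 137 pairs 0.249; rho 0.697; r 0.668 without the 2 birds farthest from the median).

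PTPRO gave 162.2, 152.2, 187.7, 280.9 and 164.7 in the fat line, against 123.1, 72.2, 21.3, 78.2 and 218.2 in the lean line. Lean line 5 lay above all fat line birds but fat line 4, and the other 4 lean line birds lay below the fat line. The log2 fold was 1.21 ± 0.54 (limma unadjusted p = 0.0413, adjusted p = 0.667), 0.73 without lean line 3 and 0.60 with signals under 100 set to 100.

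The PTPRS probe set Gga.784.1.S1_at, named for CRYPalpha, the chicken name of this receptor known from retinal axons, was the dimmest of all members, at percentile 1.1, and the study's detection calls placed it among genes that were not expressed. Its signals were 2.2, 61.6, 49.4, 54.1 and 24.2 in the fat line, against 3.3, 1.4, 22.9, 3.7 and 3.9 in the lean line. Fat line 1 lay with the lean line, and lean line 3 lay close to fat line 5. Every one of these signals was under 100, where the log2 scale stretches small differences, and its log2 fold of 2.50 ± 0.93 is a ratio of such signals rather than of measured transcript levels (limma unadjusted p = 0.0173, adjusted p = 0.576; exact permutation p = 0.0635). Within scan day 3 the log2 fold was 1.38.

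**Figure D3:**
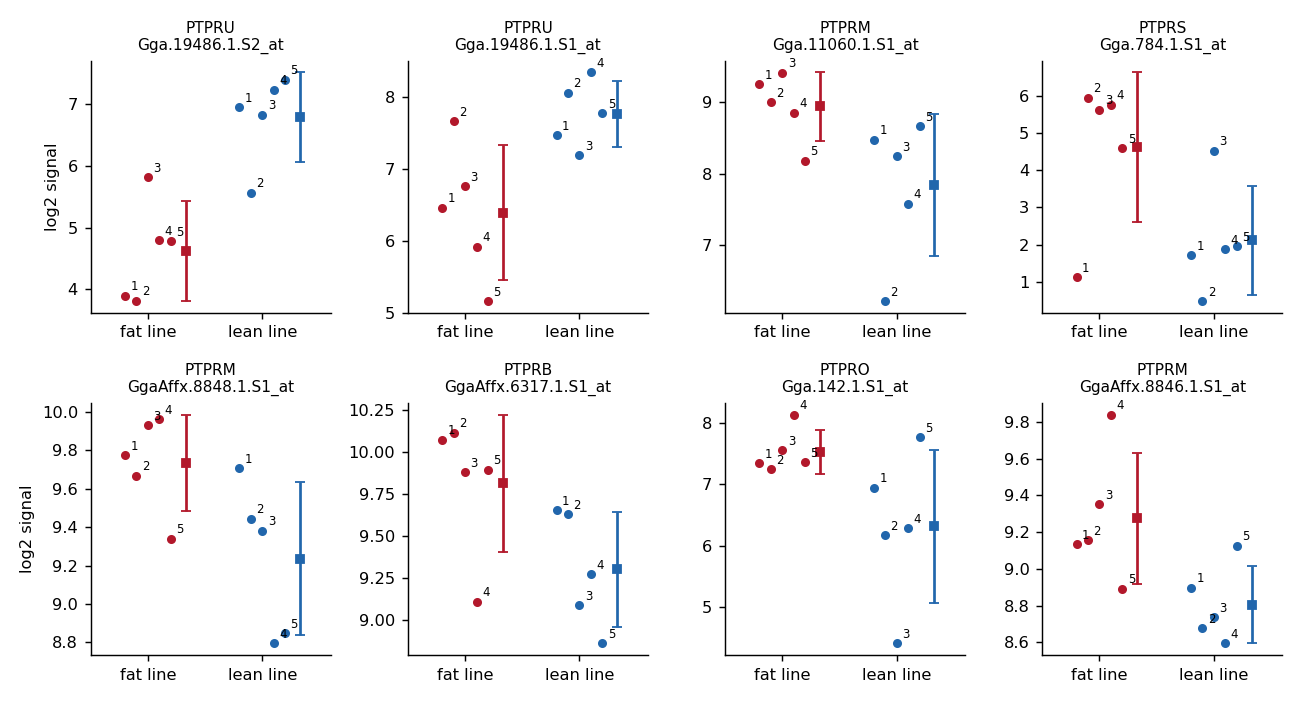
Log2 signal (vertical axis) of each bird at the 8 probe sets of smallest p, fat line left and lean line right in each panel; numbers are the birds, and squares with bars are the line mean and SD (n = 5). The lines overlap in all 8 panels, and fat line 4 is the lowest fat line bird at PTPRB and the highest at PTPRO.

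A gene measured by several probe sets gives several readings of the same line difference, and for these genes the readings often differed. Of the 21 phosphatase genes with at least 2 probe sets, 9 (42.9%) had log2 folds of one sign at all of them, beside 3036 of 7334 genes (41.4%) of the array. The 9 included PTPRA, PTPRB and PTPRC, above 0 throughout, and PTPRU, PTPRZ1, PTPN2, PTPN3, PTPN7 and PTPRN2, below 0 throughout. In 6 of the 21 genes the brightest probe set had over 10 times the mean signal of the dimmest.

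Across the 10 birds, the 137 pairs of probe sets of one gene had a median Pearson r of 0.188, beside 0.157 over 26511 such pairs of the whole array. The median was 0.289 over 23 pairs of cytosolic genes and 0.123 over 114 pairs of receptor genes. Few genes gave most of these pairs: 45 receptor pairs were of PTPRS and 28 of PTPRM, and 10 cytosolic pairs were of PTPN5. With both probe sets above percentile 50 there was 1 cytosolic pair (0.289), beside 43 receptor pairs (median 0.258). The difference between the classes was not tested. Where both probe sets lay above percentile 50, the median r was 0.261 (44 pairs, array 0.29), and it was 0.11 for the other 93 pairs (array 0.108). Pairs with both above percentile 75 had a median of 0.316 (10 pairs), against 0.488 on the array. Probe sets of one gene share the birds, so these values describe the pairs, which are not independent.

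**Figure D4:**
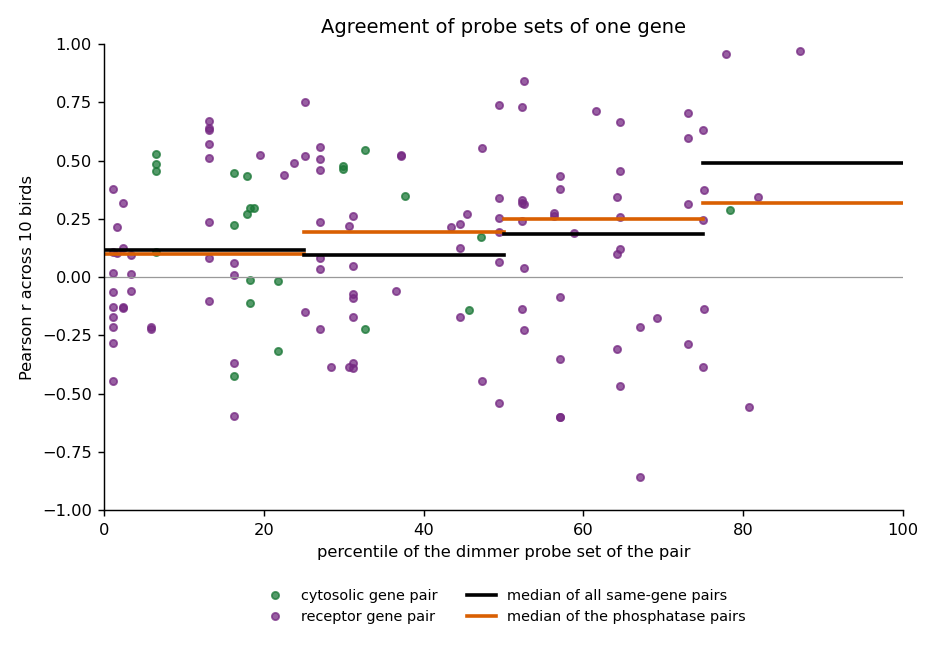
Pearson r across the 10 birds (vertical axis) of each of the 137 pairs of probe sets of one phosphatase gene, by the percentile of the dimmer probe set of the pair (horizontal axis); black bars are the medians of all same-gene pairs of the array and orange bars those of the phosphatase pairs, in 4 ranges of percentile. Points spread from -0.858 to 0.971, and the phosphatase median was 0.101 in the dimmest and 0.316 in the brightest range.

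Of the 137 pairs, 4 had an adjusted p of r under 0.05 by the permutation test, and 0 had one by Spearman's rho, where the lowest adjusted p was 0.0564. The PTPRA pair Gga.4972.1.S1_at and Gga.4972.1.S1_s_at, designed on the same GenBank entry, had r = 0.971 (adjusted permutation p = 0.00959; rho 0.915; r 0.849 without the 2 farthest birds). The second of this pair gave 1350.2, 1488.7, 1292.6, 897.8 and 956.2 in the fat line and 1446.0, 1122.8, 534.2, 1177.3 and 1205.9 in the lean line, so that lean line 3 was low at both.

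The PTPRC pair Gga.1193.1.S2_at and Gga.1193.1.S1_at had r = 0.955 (adjusted permutation p = 0.00959; rho 0.867; r 0.832 without the 2 farthest birds). The second of this pair gave 577.8, 432.4, 1021.0, 920.6 and 735.4 in the fat line and 570.6, 181.4, 1341.1, 378.6 and 756.1 in the lean line. Lean line 3 was high and lean line 2 low at both. The remaining PTPRC probe set, at percentile 5.85, had signals of 10.2 to 77.7 and an r of -0.224 with the brightest.

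PTPRS was read by 10 probe sets, the most of any member, from percentile 1.1 to 87.2. Of these, 8 had a log2 fold below 0, and the 2 above 0 were designed on the same GenBank entry, Gga.784.1.S1_at and Gga.784.1.S1_s_at. The brightest, GgaAffx.21685.1.S1_at, gave 820.5, 1307.5, 1063.6, 599.6 and 1236.8 in the fat line, against 1407.3, 1490.8, 776.5, 1522.9 and 1336.7 in the lean line (log2 fold -0.39 ± 0.24, limma adjusted p = 0.766).

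The CRYPalpha entry's brighter probe set ran the other way. Gga.784.1.S1_s_at gave 433.6, 365.1, 379.0, 479.1 and 336.2 in the fat line and 352.4, 316.0, 409.7, 275.4 and 397.2 in the lean line. It had an r of -0.858 with the brightest PTPRS probe set (adjusted permutation p = 0.0322; rho -0.867; r -0.777 without the 2 farthest birds), and of 0.377 with Gga.784.1.S1_at. Fat line 4 was the highest bird at Gga.784.1.S1_s_at and the lowest at the brightest probe set, and without it the r was -0.783. A further PTPRS pair, Gga.783.1.A1_at and Gga.18499.1.A1_at, moved together across the birds, with r = 0.840 (adjusted permutation p = 0.0251; rho 0.879; r 0.75 without the 2 farthest birds).

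The 28 pairs of PTPRM had a median r of -0.0128, from -0.6 to 0.706. The 3 probe sets of smallest p had r values of 0.63, 0.457 and 0.667 with each other, and values of -0.555, -0.386 and -0.468 with the brightest, GgaAffx.8830.1.S1_at, none of them past the adjusted threshold. With the line means removed these were 0.351, 0.0958 and 0.432 among the 3, and -0.655, -0.443 and -0.53 with the brightest. The PTPRM probe set GgaAffx.8832.1.S1_at was low in fat line 4, at 59.2, where the other fat line birds had 269.4 to 432.3.

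In the other genes with 3 or more probe sets, PTPRK pairs had r values of -0.447 to 0.555, PTPRF pairs -0.132 to 0.526, PTPRT pairs -0.597 to 0.752, PTPRR pairs 0.105 to 0.489, PTPN13 pairs -0.317 to 0.545, PTPN5 pairs -0.425 to 0.529 and PTPN3 pairs 0.346 to 0.476. None of these passed the adjusted threshold. The PTPN3 probe sets, of a FERM and PDZ domain phosphatase, were the only such set with all pairs above 0.3. The PTPN5 gene overlaps PTPRJ on GRCg7b, and PTPRB lies next to PTPRR and PTPN7 next to PTPRVP.

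PTPRC and PTPN6 are known from leukocytes, and both were set against the 22 leukocyte markers measured. These markers had summed signals of 60859 to 75796 in the fat line and 56675 to 88970 in the lean line, with lean line 3 the highest bird and lean line 4 the lowest by mean log2 signal. Of the 22, 0 were higher and 2 lower (9.09%, against 3.99% of the array) in the fat line at an unadjusted p under 0.05. PTPRC correlated with their mean log2 signal at r = 0.536 (permutation p = 0.116, adjusted over 3 relations 0.174; rho 0.624) and PTPN6 at r = 0.736 (permutation p = 0.0388, adjusted 0.116; rho 0.394).

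Without lean line 3 and lean line 4, the 2 birds farthest from the median of the markers, r was 0.34 for PTPRC and -0.25 for PTPN6, so the relation of PTPN6 rests on those birds. Within scan day 3 (6 birds) r was 0.788 for PTPRC and 0.832 for PTPN6. Lean line 3 is one of those 6 birds.

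PTPRB was set against the 20 endothelial markers measured, which had summed signals of 57200 to 80926 in the fat line and 52044 to 87876 in the lean line. Their median log2 fold was 0.087, and 1 of them, SOX17, was higher in the fat line at an unadjusted p under 0.05 (log2 fold 0.76), which is 5% against 3.38% of the array. PTPRB had an r of -0.0367 with their mean (permutation p = 0.935, adjusted 0.935; rho 0.127), and 0.611 without lean line 3, where the markers were highest and PTPRB gave 543.3. Without lean line 3 and 4 it was 0.575, and within scan day 3 (6 birds, lean line 3 among them) it was -0.131.

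**Figure D5:**
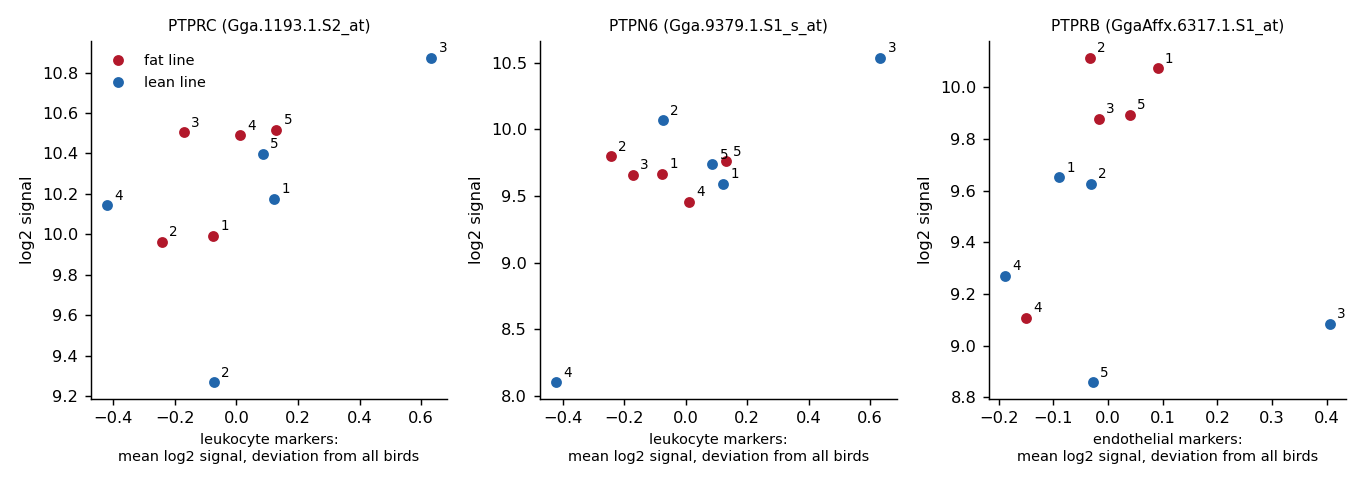
Log2 signal of PTPRC, PTPN6 and PTPRB (vertical axes) against the mean log2 signal of the leukocyte or endothelial markers as a deviation from the mean of all birds (horizontal axes), 1 numbered point per bird. Lean line 3 is the bird farthest to the right in each panel, high for PTPRC and PTPN6 and low for PTPRB.

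Other phosphatase genes and the kinases were described from lists that take in no member. Of 60 genes of other phosphatase families (dual specificity, PRL, CDC25, myotubularin, EYA and phosphatase-like HACD genes), 51 were on the array with a median percentile of 74.8, and 0 were called by limma after adjustment. At an unadjusted p under 0.05, 2 were higher (3.92%, against 3.38% of the array) and 1 lower (1.96%, against 3.99%) in the fat line. DUSP3, which acts on MAP kinases, gave 15095.9, 13102.4, 13208.1, 10389.1 and 9622.2 in the fat line, against 7752.5, 10339.8, 5940.4, 7442.4 and 9642.3 in the lean line (log2 fold 0.59 ± 0.17, limma adjusted p = 0.44). The lines met through fat line 5 alone, which lay below lean line 2 and 5.

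HACD2, a fatty acid elongation dehydratase once named as a phosphatase-like protein, had a log2 fold of 0.39 (limma adjusted p = 0.672), DUSP8, a phosphatase of stress-activated MAP kinases, one of -1.14 (adjusted p = 0.666) and DUSP5, which acts on ERK, one of 0.56 (adjusted p = 0.677).

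Of 65 tyrosine kinase, receptor and docking protein genes on which these phosphatases act, 58 were on the array with a median percentile of 79.2. At an unadjusted p under 0.05, 5 were higher (8.62%, against 3.38% of the array) and 0 lower (against 3.99%) in the fat line, beside 30 with a log2 fold above 0 and 28 below, and 0 passed after adjustment. GHR, the growth hormone receptor, gave 3125.9, 3294.6, 3939.1, 2948.5 and 3361.1 in the fat line, against 1944.9, 2334, 2505.9, 2450.4 and 2255.5 in the lean line, and its lines did not overlap (log2 fold 0.54 ± 0.13, limma adjusted p = 0.319).

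LYN, a Src family kinase of blood cells and other tissues, had a log2 fold of 0.76 ± 0.19 (limma adjusted p = 0.321), RET, a receptor tyrosine kinase of neural crest and kidney, 0.48 (adjusted p = 0.51) and IRS2, the docking protein of the insulin receptor, 0.60 (adjusted p = 0.518). RET gave 5555.4 to 7767.1 in the fat line and 3830.6 to 6267.3 in the lean line. IRS2 gave 696.1 to 1553.8 in the fat line and 642.8 to 840.6 in the lean line, with fat line 4 the low bird of its line.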

How the data were processed

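The authors deposited MAS5 signal intensities, scaled per array on a linear scale. No detection calls were used here. Genes were named from GEO's platform annotation (27168 probe sets with 1 symbol, 177 with several, 11094 with none), and 96 control probe sets were left out. Log2 signals were compared with limma 3.58.1 in R 4.3.3 (lmFit, eBayes with a trend), two-sided, Benjamini-Hochberg over 38439 probe sets, threshold 0.05, and by an exact permutation test over 252 labellings (smallest p 0.0079). SAM used a delta of 0.8 and 100 permutations on all birds and probe sets, where the study ran it on detected probe sets without 1 bird. Correlations used 100000 permutations in Python 3.11.15 with scipy 1.17.1 and seed 193. The methods were tested on simulated data. Total counts do not apply to arrays, whose number limits the precision.

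The labels name the birds of a line as biological replicates. The members and lists were chosen with earlier results of these data known. Named with values are the 8 members of smallest p, the brightest probe set of 6 receptor and 6 cytosolic genes, PTPN9, PTPRS and up to 4 genes of smallest p in the phosphatase and kinase lists. Other probe sets of genes with at least 3 are given by range. The list genes stand by their brightest probe set.

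Alternatives were quantile normalization, the same median, 50 added, a floor of 100, the brighter probe sets alone, no trend, a block for the replicate number or for the scan day, and leaving out each bird. Quantile normalization without fat line 4, scan day 3 alone and the hybridization group as a block were chosen after seeing the data. The hybridization group joins arrays with close hybridization times in the scan headers. Lean line 1 and 2 form a group of their own, so they add nothing to the line difference in that fit. The study left 1 bird out that the labels do not name, so all 10 were used. At CD74, the signal the study printed for that bird matches fat line 4 (38875.2), the array that stood apart. The printed CD74 signals place fat line 1 (40065.4) and 2 (38465.9) in the lean line. They place lean line 4 (36115.5) and 5 (38191.1) in the fat line. At FABP4, LPL and THRSP the printed signals place every bird in its labelled line. There, those of the bird left out match fat line 2 (57201.3, 25855 and 35260.7). The printed signals thus differ on which array is that bird's. The line labels were used as deposited.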

Additional observations from a re-analysis of the deposited data

Results flagged for a closer look

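The 85 probe sets gave 170 groups of 5 birds of a line. Of these groups, 20 held 1 bird far from the other 4 on the log2 scale. The nominal rate of the rule (Dixon's test) is about 1 in 20 groups, for independent normal values. The share over all probe sets of the array was not computed, so the count does not single out the phosphatases. Of the 20, 14 were low birds. Fat line 4, which stood apart as an array, accounted for 7. It was high at PTPN4 (1067.1), PTPN7 (GgaAffx.372.1.S1_at, 237.1) and PTPRF (GgaAffx.23111.7.S1_at, 124.8), and low at both PTPRB probe sets (551.7 and 128.6), PTPRK (Gga.16194.1.S1_at, 152.4) and PTPRM (GgaAffx.8832.1.S1_at, 59.2). The other fat line birds lay at 941.4 to 1108.9 at the brighter PTPRB probe set, at 373.7 to 462.2 at the other, and at 5.5 to 10 at PTPRF.

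Lean line 3, the bird of highest leukocyte and endothelial markers, was low at 4: PTPN12 (GgaAffx.22531.1.S1_at, 84.2), both PTPRA probe sets of one GenBank entry (668 and 534.2) and PTPRS (GgaAffx.21685.1.S1_at, 776.5). Lean line 4 was high at PTPN13 (879.5, where the other lean line birds had 390.8 to 455.7) and at PTPRZ1 (GgaAffx.22744.1.S1_at, 273.1). Lean line 5 was low at PTPRB (GgaAffx.6366.1.S1_at, 66.7) and PTPRN (Gga.18493.1.A1_at, 48.2), and lean line 2 was low at PTPRK (GgaAffx.9415.1.S1_at, 57.6) and high at PTPRM (GgaAffx.8842.1.S1_s_at, 586.7). In the fat line, bird 1 was low at PTPN14 (84.2) and at the PTPRS probe set Gga.784.1.S1_at (2.2), and bird 2 at PTPRR (GgaAffx.23139.1.S1_at, 5.6).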

How the results depend on the processing

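No phosphatase probe set was called by limma under any alternative run, nor by SAM, which gives no unadjusted p. Over all probe sets, limma called 0 to 2 with a bird left out and 2 with quantile normalization without fat line 4. At an unadjusted p under 0.05 there were 4 to 9 members with a bird left out, 4 when the dimmer probe sets were left out, and 5 both within scan day 3 and with quantile normalization without fat line 4. The share of members with a log2 fold above 0 was 48.2% with quantile normalization or the same median and 41.2% without. Scaling to the same median moved the median log2 fold of all probe sets to 0.042 and, without fat line 4, it was -0.11. Of the probe sets at an unadjusted p under 0.05, 62% were higher in the fat line with the same median, and 45.9% as deposited.

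With the replicate number as a block, 7 members had an unadjusted p under 0.05 and the lowest adjusted p was 0.489. Birds of the same number correlated at -0.136 to 0.0631 in their deviations and 0 fat line birds correlated best with the lean line bird of their number, so they share only a number.

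Of 562 log2 folds of 27 named probe sets under alternatives, 545 kept their sign and side of the threshold and 17 changed sign, all of small folds. With a bird left out, PTPRA ran from -0.13 to 0.23, PTPRM (GgaAffx.8830.1.S1_at) from -0.13 to 0.026, PTPRC from -0.10 to 0.30, PTPN6 from -0.31 to 0.29 and PTPN2 from -0.24 to 0.031. PTPRM was 0.061 with the same median, 0.0079 with scan day as a block and 0.024 within scan day 3. PTPRC was -0.19 with scan day as a block, -0.40 within scan day 3 and -0.11 with the hybridization group as a block. PTPN6 was -0.49 within scan day 3, and PTPN2 was 0.042 with quantile normalization without fat line 4. The cause was not tested. The PTPRS probe set Gga.784.1.S1_at has no value with a floor of 100, since all its signals lie under it.

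With the mean over probe sets the median percentile was 56.9 for cytosolic and 53.4 for receptor genes, and with a bird left out 68.8 to 71.6 and 62.4 to 64.8. The median r of same-gene pairs was 0.137 to 0.214 with a bird left out and 0.117 with quantile normalization. The r of PTPRB with endothelial markers was -0.169 to 0.611. The SE of a log2 fold was larger for members of low signal (median 0.581, against 0.268 for the brighter members). The part of low signals in the percentiles and r values was not tested.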

Other observations

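The second probe set of PTPRZ1, a nervous system phosphatase that binds pleiotrophin, gave 20.7, 63.5, 30.8, 19.2 and 59.6 in the fat line, against 164.7, 13.2, 132.9, 1309.5 and 38.5 in the lean line. Lean line 4 alone was far above the other birds. It was also the highest bird at the other PTPRZ1 probe set (273.1, with fat line 4 at 229). The 2 PTPRZ1 probe sets had an r of 0.437, and of -0.345 without the 2 birds farthest from the median. Lean line 4 was highest at the PTPN13 probe set GgaAffx.23445.1.S1_s_at (879.5). At the other PTPN13 probe sets lean line 2 or fat line 4 was highest. Lean line 4 had the highest smooth muscle markers, with a mean log2 signal 1.65 above that of all birds, and the header of its array recorded an aborted step. The 10 nerve and Schwann cell markers had a mean log2 signal of -0.2 in lean line 4 relative to all birds. The part of any of these in PTPRZ1 was not tested.

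The MAP kinase binding phosphatase PTPN7, of blood cells, had log2 folds below 0 at both probe sets, neither past the test. At GgaAffx.378.1.S1_at it gave 62.3 to 242.5 in the fat line and 141.6 to 300.7 in the lean line, and at GgaAffx.372.1.S1_at 139.4 to 237.1 in the fat line and 160.0 to 319.3 in the lean line. The leukocyte markers had a median log2 fold of -0.16, against -0.055 over all probe sets. PTPRC and PTPN6, also known from leukocytes, had log2 folds above 0, at 0.078 to 0.424 for PTPRC and 0.062 for PTPN6. PTPN7 was not set against the leukocyte markers, and their part in its values was not tested.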
